A study of Mus musculus with 2 samples.

Results

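The skeletal myosin heavy chain genes of the mouse stand side by side on chromosome 11, and FoxO3 peaks were examined across a window holding them, chr11:66860000-67200000 on build mm9. The members are all FoxO3 peaks whose summit fell in that 340 kb window, in either of 2 deposited peak lists. There were 35 such peaks out of 45958 in both lists together. All 35 came from the 45457 peaks of the myotube list and 0 from the 501 peaks of the myoblast list. The window was set by position and its rule used no measured value, but it was chosen with earlier results of these data known.

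The lists came from chromatin immunoprecipitation followed by sequencing in C2C12, an established line of mouse myoblasts that stop dividing and fuse into multinucleated fibres when serum is lowered. Both samples used an antibody against Foxo3, and the labels name no genetic change or further treatment in either. The myoblast sample was taken at hour -24 relative to differentiation medium, from cells in growth medium with fetal bovine serum, and the myotube sample at hour 72 of differentiation medium with horse serum. The source label of the hour 72 sample also reads C2C12 myoblasts, and it is called myotube here after its time, the protocol and the series' design text. Each condition was 1 library, so no value below has a replicate error and no test between conditions was made. The lists hold no expression values, so the state of the cells could not be checked against marker genes.

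Myosin heavy chains are the motor proteins of the thick filament, and the isoform in use sets how fast a muscle fibre contracts. The array is known for switching during development: Myh3 encodes the embryonic isoform and Myh8 the neonatal (perinatal) isoform, both typical of forming or regenerating fibres, and they give way to the adult fast isoforms encoded by Myh2 (IIa), Myh1 (IIx) and Myh4 (IIb). Myh13 encodes an isoform of extraocular and laryngeal muscle. FoxO3 is a forkhead transcription factor that is held out of the nucleus by insulin and growth factor signalling and drives atrophy genes in muscle. A muscle super-enhancer acting on the adult fast genes has been described in the interval between Myh3 and Myh2; its position on mm9 was not examined here.

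In the gene table at hand (RefSeq, GRCm38.p6), the 6 genes follow each other as Myh3, Myh2, Myh1, Myh4, Myh8 and Myh13 from low to high coordinates, all read in that direction, with 0 other protein-coding genes between them. Below Myh3 the table lists Tmem220, Adprm and Sco1, in that order. The interval between Myh3 and Myh2 holds 3 non-coding genes, Mir6923, the long non-coding RNA 2310065F04Rik (linc-MYH) and Gm31285. Myhas lies between Myh1 and Myh4, and a transfer RNA gene between Myh8 and Myh13. The embryonic and the neonatal gene therefore do not adjoin: the adult fast genes lie between them. The table belongs to another build than the peaks, so peaks are placed below by mm9 coordinate and by which end of the array they lie towards. Which gene, exon or promoter a peak falls in was not determined, and peaks near either edge of the window may lie outside the myosin genes.

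The promoters of the members were compared only by a shared stretch and by fixed motif letters. RefSeq promoter sequences (GRCm38.p6, 250 bases before to 50 after the annotated start, plus strand for all) were found for 6 of 6 genes. Those of Myh2, Myh1, Myh4 and Myh8, the adult fast genes and the neonatal gene, share a stretch that starts with the same 8 bases and ends with the same 14. It is shown because it groups these 4 genes apart from Myh3 and Myh13. Capitals mark a match to the MEF2 site (the binding motif of the MEF2 muscle factors, here on the reverse strand), where there is one, and the shared 14 bases at the end. The GRCm38.p6 positions cannot be read against the mm9 window.
Myh2, chr11:67170855-67170915: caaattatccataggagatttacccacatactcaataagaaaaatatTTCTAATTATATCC
Myh1, chr11:67199887-67199955: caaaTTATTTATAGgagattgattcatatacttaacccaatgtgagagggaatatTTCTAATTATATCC
Myh4, chr11:67237626-67237667: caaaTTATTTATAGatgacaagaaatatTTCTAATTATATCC
Myh8, chr11:67277021-67277083: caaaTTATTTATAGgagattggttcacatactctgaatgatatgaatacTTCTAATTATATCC

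The stretch, searched as its first 8 and last 8 bases 5 to 70 bases apart on the gene's strand, was in 4 of the 32851 promoters of the table (0.0122%), these 4. The pattern was read off these promoters, so the count is a description. The MEF2 site was matched in the promoters of Myh1, Myh4 and Myh8, against 1.86% of all promoters. In each of the 3 the matched MEF2 letters contain the TATA box letters on the same, reverse strand. Those letters, searched as TATAAA on both strands, were in 5 of 6, all but Myh13, against 13.6%. Before the start alone they were in 4 of 6, against 12.4%. The only match of Myh8 was the 1 inside its MEF2 site, and the only match of Myh2 lay after the start. Myh3, Myh1 and Myh4 had a forward match beginning at -29, -32 and -31 from the start. An E-box (CANNTG), the site of MyoD and its relatives, was in those of Myh3, Myh4, Myh8 and Myh13, against 72.3%, and its CAGCTG form was in Myh4 alone of the 6, against 16.3%. The forkhead letters GTAAACA were in 0 of 6 and 3.65% of all promoters, and TTGTTTAC in 0 of 6 and 1.23%. That says only that these letters are not in these windows of 300 bases.

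The myotube list carried peaks along most of the window, and the myoblast list carried none. The 35 myotube peaks (95% Poisson interval 24.4 to 48.7, counting error only) amount to 103 peaks per Mb, and to 1.06% of the 3303 myotube peaks on chromosome 11. Of 7521 windows of the same length laid over all chromosomes, 68.5% held at least 1 myotube peak and the median held 3. Windows with 35 or more were 1.38% of all, and 10 of the 348 on chromosome 11 (2.87%). The adjoining 340 kb held 4 myotube peaks on the low side (interval 1.09 to 10.2) and 5 on the high side (1.62 to 11.7). The interval of the window does not overlap those of its flanks, but this is not a test. The intervals take peaks as independent, whereas the peaks of the window lay in groups, described below. The next myotube summit outside the window lay 11.5 kb below it and 173 kb above it.

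The 0 of the myoblast list (Poisson interval 0 to 3.69) carries little information by itself. Of the same 7521 windows, 5.77% held a myoblast peak, and so did 98 of the 496 windows with 20 or more myotube peaks (19.8%). The nearest myoblast summits lay 4590 kb below the window, in a peak of 10 recovered reads and fold 22.53, and 1676 kb above it, in a peak of 9 reads and fold 12.01. Reads here are the whole-number pileup at the summit that fits the deposited fold and p-value together. A region with fewer reads than the caller needed is not listed, so 0 listed peaks does not show that FoxO3 was absent from the window in myoblasts.

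**Figure D1:**
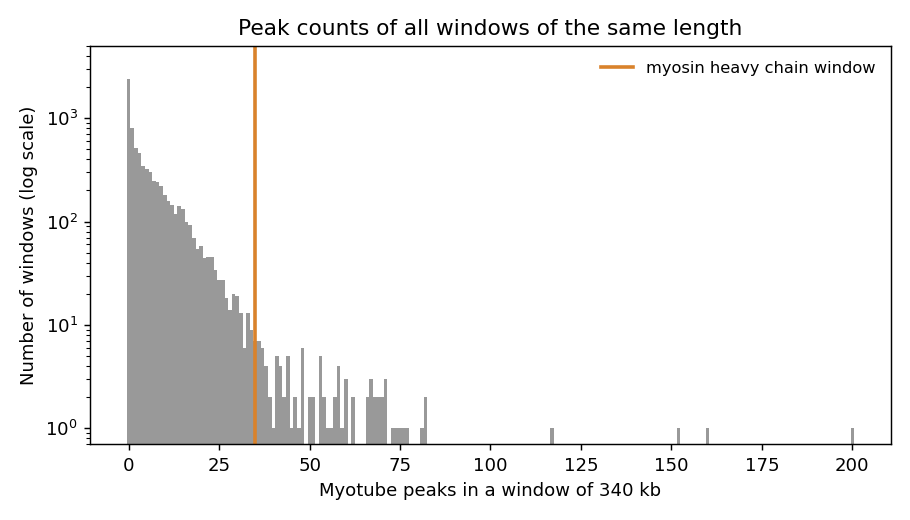
Number of windows of 340 kb (log scale) by the number of myotube FoxO3 peaks they hold, over all chromosomes, with the myosin heavy chain window as a vertical line. The window holds 35 peaks, where the median window holds 3 and the fullest 200.

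Peaks were most numerous on the low-coordinate side, the end at which Myh3 stands first. That side may also hold sequence below Myh3, the interval between Myh3 and Myh2, and adult fast genes. Which genes lie below the midpoint was not determined. The count therefore does not place the peaks in Myh3, and it does not set the embryonic gene against the adult fast genes. Of the 35 summits, 25 lay below the midpoint of the window (71.4%, Wilson interval 54.9% to 83.7%) and 10 above it. Cut into equal parts of 113 kb, the window held 21 peaks in the lowest part, 11 in the middle and 3 in the highest, the end at which Myh13 stands last. The first 120 kb held 23 peaks and the last 140 kb held 5. Such unevenness was common: among the 496 windows with 20 or more myotube peaks, 41.3% had at least as large a share on one side of their midpoint, and the median share on the fuller side was 68.2%. The lean to the low side describes this window and does not set it apart.

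The counts of strong peaks were small on either side, and no test between the sides was made. A fold of 10 or more was reached by 10 of the 25 peaks below the midpoint (40%, Wilson interval 23.4% to 59.3%) and 2 of the 10 above it (20%, 5.67% to 50.98%), against 35.4% of the whole myotube list. A fold of 20 or more was reached by 3 of 25 below (12%, 4.17% to 29.96%) and 0 of 10 above (0% to 27.8%), against 5.88% of the list. The intervals overlap at both thresholds. The median fold was 9.25 below (range 3.65 to 26.78) and 7.05 above (5.16 to 10.57), so the ranges overlap. The median recovered background was 1.79 reads below and 2.01 above.

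**Figure D2:**
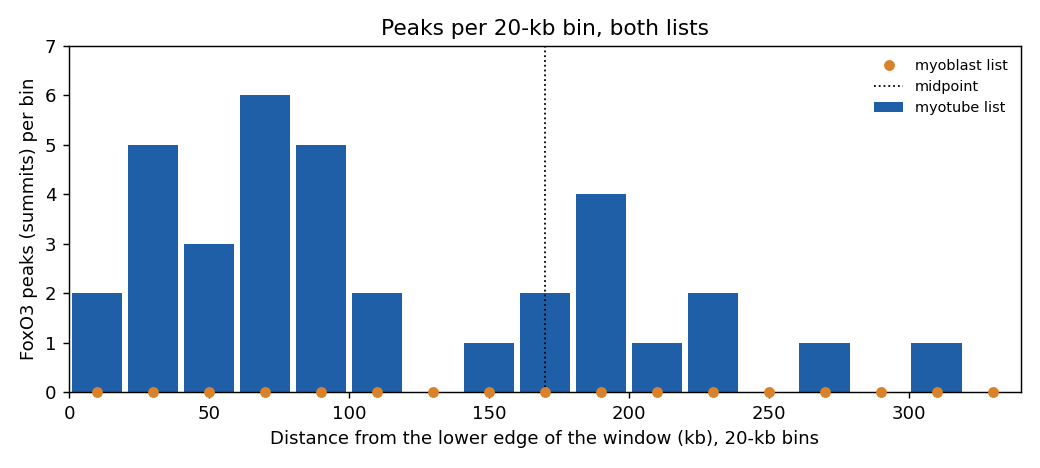
FoxO3 peaks per bin of 20 kb along the window, from its low-coordinate edge, as bars for the myotube list and points for the myoblast list, with the midpoint dotted. The fullest bin, from 60 to 80 kb, holds 6 myotube peaks, 4 of the 17 bins hold none, and every myoblast point is at 0.

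Read from the low-coordinate edge, the peaks came in groups. Summits joined where they lay within 12 kb of each other gave 3 groups of 3 or more peaks. The largest, chr11:66916498-66958430, held 14 peaks over 41.9 kb, and its highest fold was 20.49. A group of 5 peaks over 10.5 kb, chr11:66888854-66899320, lay below it, and its strongest peak, chr11:66890943-66891232, had a fold of 8.54 and 21 reads. The other group of 5, chr11:67038046-67051311 over 13.3 kb, lay above the midpoint. Its strongest peak by fold, chr11:67051190-67051311, had a fold of 7.09, 11 reads and a −log10 q-value of 4.35. The other peaks of that group had −log10 q-values of 5.44, 2.15, 4.66 and 4.75. The median of the myotube list was 8.51, so this group was weakly called. The group of 14 had a median of 19 recovered reads and the groups of 5 had 14 and 13. Between neighbouring summits the median distance was 4665 bp, from 457 bp to 36.7 kb. The distance was under 2 kb in 12 of 34 cases and over 20 kb in 4: 34.3 kb after 66978696, then 28.5, 33.5 and 36.7 kb, all 3 of these above the midpoint.

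The strongest peak of the window lay near its middle. It was chr11:67012914-67013765, with a fold of 26.78, a −log10 q-value of 47.87 and 49 recovered reads over a background of 1.83. It was also the widest, at 852 bp, a width that 98 peaks of the myotube list (0.216%) reached. Its summit lay 115 bp from its low end and 737 bp from its high end, so most of its length ran towards the Myh13 end. No summit lay in the 34.3 kb before it. Its single companion within 12 kb followed 8516 bp on, with a fold of 9.91 and 15 reads.

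The next strongest, chr11:66872571-66872871, had a fold of 25.90, a −log10 q-value of 40.33 and 42 reads over 1.62. It lay near the low edge of the window, 12.7 kb in, with a single companion at chr11:66866034-66866177 of fold 10.49 and 18 reads, the lowest in coordinate of all 35. The following 2 by fold formed a pair in the group of 14, with summits 1103 bp apart. Of these, chr11:66919208-66919653 had a fold of 20.49 with 31 reads over 1.51, and chr11:66918272-66918590 had 19.81 with 35 reads over 1.77. All 4 lay below the midpoint. Above it the highest fold was 10.57, at chr11:67093784-67093948 with 16 reads.

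Below these came 3 peaks of fold near 15. They were chr11:66957415-66957561 with a fold of 15.86 and 24 reads, chr11:66977339-66977525 with 15.85 and 28 reads, and chr11:66939052-66939283 with 14.54 and 22 reads. The list of the 10 highest by fold closed with chr11:66957960-66958430 at 11.12 (23 reads, 471 bp wide), the peak of 10.57 named above and the peak of 10.49 at the low edge. The highest in coordinate, chr11:67163981-67164140, had a fold of 10.31 and 16 reads. It lay 36.7 kb from its only neighbour, and the last 35.9 kb of the window held no summit. Width did not follow fold throughout. The 4 peaks of highest fold, a number chosen after the values were seen, were 301 to 852 bp wide, and the other 31 were 122 to 526 bp wide with a median of 187 bp. The next 3 by fold were 147, 187 and 232 bp wide, and the second widest peak, at 526 bp, ranked 23 by fold.

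**Figure D3:**
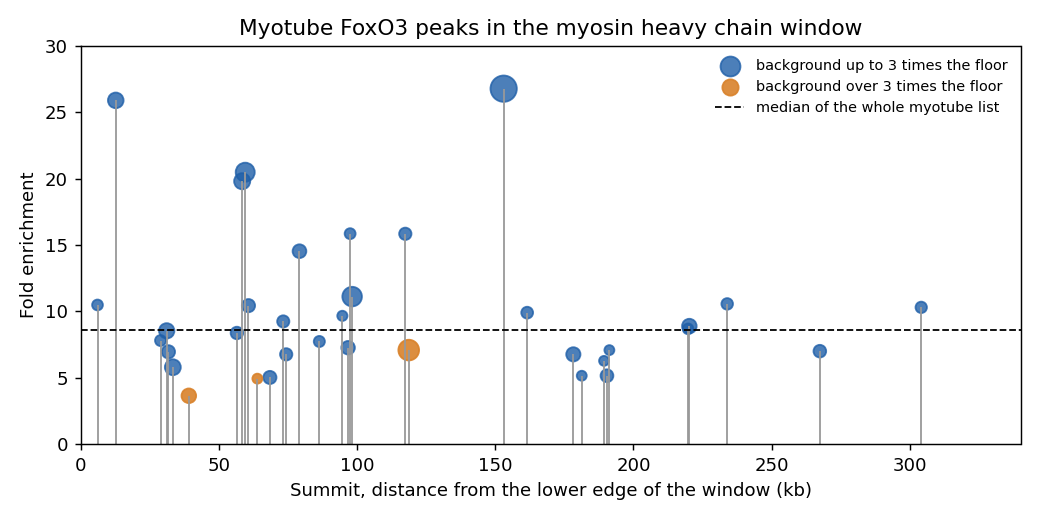
Fold enrichment of the 35 myotube peaks against the distance of their summit from the low-coordinate edge of the window, with point area in proportion to peak width and the median fold of the whole myotube list dashed. The highest points stand at 12.7, 58.4, 59.5 and 153 kb, and no point beyond the midpoint exceeds a fold of 10.57.

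As a group, the peaks of the window resembled the rest of the myotube list. Their median fold was 8.54 (quartiles 6.87 and 10.5), against 8.59 (6.92 and 11.6) over the list. Their median width was 197 bp (151 and 262), against 186 bp (142 and 257). The median pileup was 16 reads (14 and 23.5), against 18 (14 and 25). A fold of 10 or more was reached by 12 of 35 (34.3%, Wilson interval 20.8% to 50.9%), and by 35.4% of the list. A fold of 20 or more was reached by 3 of 35 (8.57%, 2.96% to 22.4%), and by 5.88% of the list. A width of 500 bp or more was reached by 2 of 35 (5.71%), and by 2.64% of the list. Among the 496 windows with 20 or more myotube peaks, 47.6% had a highest fold at or above 26.78, and 47.8% had a median fold at or above 8.54. The window is thus marked by the number of its peaks and lies near the middle of such windows in their strength.

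The recovered background of the 35 peaks ran from 1.51 to 4.66 reads, with a median of 1.83, against 2.07 over the list. The most frequent background of the myotube list, its floor, was 1.51 reads, and a background over 3 times that is called raised. It was raised at 3 of the 35 peaks (8.57%, 2.96% to 22.4%), against 3.58% of the list, and each of the 3 was just over the bound of 4.53 reads. All 3 lay below the midpoint. These were chr11:66899059-66899320 (fold 3.65, the lowest of the 35, 17 reads over 4.66), chr11:66923850-66923971 (fold 4.94, 23 reads over 4.66) and chr11:66978312-66978837 (fold 7.09, 33 reads over 4.65). The myosin heavy chain genes are close copies of each other, and how reads matching several of them were treated is not given in the sources used here. Its part in the peaks of the window was not tested.

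**Figure D4:**
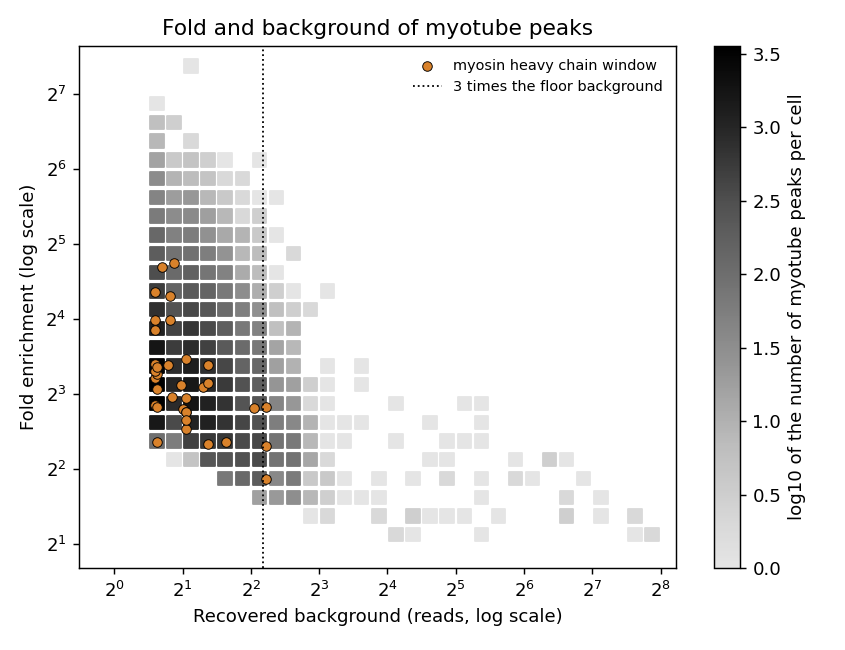
Fold enrichment against recovered background (both log scales) for the 35 peaks of the window as points, over all myotube peaks as squares shaded by their number. The points lie within the cloud of the list, between 1.51 and 4.66 reads of background, and 3 of them lie just beyond the dotted bound of 4.53 reads.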

How the data were processed

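FoxO3 ChIP-seq peaks of 1 myoblast and 1 myotube library were used. The submitters' processing notes name MACS2 2.1.0 and mm9, without an aligner, control, duplicate handling or threshold. The deposited lists follow the narrowPeak layout, per the file headers: a score (10 times the −log10 q-value), a fold enrichment (ratio), p- and q-values as −log10, and a summit offset, all from the authors' caller. Total depth is unknown.

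Peaks with a summit in the window were taken. A pileup was recovered as the whole number n for which n divided by the fold, as a Poisson background, gave the deposited p-value within 0.02 (log10) beyond rounding; it was found for 35 of 35 window peaks, and the method was tested on simulated data. Coordinates count from 1. Overlap meant at least 1 bp. Intervals (95%) cover counting error only. The comparison windows covered each chromosome between its outermost peaks. The text names all 6 genes, the 10 peaks of highest fold, the lowest and highest in coordinate and the strongest of each group; other peaks were named after their values were seen. The members, gene list and thresholds were chosen with earlier results of these data known. Protein identity was not analysed here. Software was scipy 1.17.1, pandas 2.3.3 and numpy 2.4.6 on Python 3.11.15.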

Additional observations from a re-analysis of the deposited data

How the results depend on the processing

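Each condition was 1 library, and few reads lay behind most peaks. With the −log10 q-value required to reach 10, the window held 14 myotube peaks, 85.7% of them below the midpoint. On chromosome 11 alone 2.87% of windows held at least as many peaks. The other 31 of 34 alternative values stayed within 1.5 times or the interval of the reported value, but some could not have moved. The 31 include 27 myotube peaks and 77.8% below the midpoint where 5 was required. The 3 groups of 3 or more peaks became 2 there, a value at the bound of 1.5 times. They became 4 with summits joined at 5 kb and stayed 3 at 25 kb. Also among the 31 are 32 peaks and 68.8% without raised background (chosen after seeing the data), and 0 myoblast peaks in all 6 settings run. These 0 counts, and those of peaks in both lists, were fixed, as the nearest myoblast summit lay 1676 kb from the window. The FoxO letters, absent from the full promoter windows, could not appear in the part before the start alone. The 60% of peaks in the lowest 113 kb is a different share from the 71.4% below the midpoint, so it does not test that value. Identity over whole protein alignments was not run. No paired analysis was possible because a single library stands for either condition.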
